A study of Homo sapiens with 14 samples.

Results

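The domain IV core of human 28S rRNA, taken as nt 3599 to 3876, is the stretch that follows the expansion segment ES27L and holds helix 69 (H69) and other contacts to the small subunit. It was chosen by position in the rRNA, not by any score, and all of its 278 nucleotides carried a value for each of 3 reagents, out of 5034 scored nucleotides of the 5070 nt of 28S. The other 4756 scored nucleotides of 28S serve as the reference. The limits are approximate and use one fixed numbering. The listed gene copy of the same length is RNA28SN5, at 113348 to 118417 of a GRCh38.p14 sequence with no chromosome assigned, a locus that encodes a structural rRNA and no protein. The other 4 listed copies of 28S differ in length, from 5054 to 5077 nt. No 28S sequence was used here, so neither the limits nor the listed positions below were checked against bases, and no bases are shown.

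Domain IV faces the small subunit in the assembled ribosome. Its hairpin H69 reaches into the decoding region and contacts helix 44 of 18S rRNA in the bridge called B2a, next to the tRNAs in the A and P sites, and helix 71 (H71) forms another bridge, B3, with the same 18S helix. H69 is one of the most heavily pseudouridylated parts of the large subunit. Acylating reagents react with the 2′-hydroxyl of flexible nucleotides within their reach, and the adduct stops reverse transcriptase, so a high score is read as a nucleotide open to the reagent. A ribose methyl group occupies that hydroxyl.

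The study treated HEK293 cells, a human embryonic kidney line that carries adenovirus 5 DNA, and lists 14 samples in 7 groups of 2 replicates. The 3 groups used here are gel-purified ribosomal RNA from cells given AcIm (acetylimidazole, which transfers an acetyl group) at 100 mM, NAIN3 (the azide-bearing nicotinic acid imidazolide, which transfers a bulkier aromatic acyl group) at 100 mM, or AcIN3 at 200 mM, with a treatment of 10 min in each case. For AcIN3 the labels give the name alone. The solvent control was 10% DMSO for 10 min, and its profile was not analysed here. The values are the authors' mean R-score over the 2 replicates, a number between 0 and 1 per nucleotide. Replicate values and read counts were not analysed here, so the depth is unknown, no value carries a replicate error, and no difference below could be set against the spread between replicates. AcIm and NAIN3 were matched in dose and time. AcIN3 was used at a higher dose, so its values stand beside the others without a comparison of strength.

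As a whole the domain IV core was neither open nor closed by the standards of 28S. To place scores of different range side by side, each score was also given as a percentile rank among all scored 28S nucleotides for the same reagent, and the highest 10% (503 nucleotides) were called highly reactive. These began at a score of 0.3095 (AcIm), 0.369 (AcIN3) or 0.2395 (NAIN3). The core held 27 highly reactive nucleotides for AcIm (9.71%, exact Clopper-Pearson 95% interval 6.50 to 13.8%), 28 for AcIN3 (10.1%, 6.80 to 14.2%) and 22 for NAIN3 (7.91%, 5.03 to 11.7%). The rest of 28S held 10.0%, 9.99% and 10.1%, all inside those intervals. These intervals are too narrow where neighbouring nucleotides move together, and they hold no replicate spread.

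Typical scores moved in different directions for the reagents. The median R-score of the core was 0.0575 for AcIm against 0.0655 in the rest of 28S, 0.0255 for NAIN3 against 0.0333, and 0.121 for AcIN3 against 0.0985. Expressed as ranks, the medians in the core were 45.8 for AcIm (exact binomial 95% interval 39.6 to 57.1), 43.0 for NAIN3 (39.1 to 49.4) and 57.2 for AcIN3 (50.9 to 61.1). The AcIm interval included the median rank of the rest, 50.1. Those of NAIN3 and AcIN3 did not include theirs, 50.4 and 49.5, although for both the nearer bound lay close to it. These intervals have the same limits as those of the shares above. Of 16 other blocks of 278 nt along 28S, 2 had a higher median rank with AcIN3 and 14 a lower one. With NAIN3 11 were higher and 5 lower. The raised median of AcIN3 came with few closed nucleotides, since 43 of 278 (15.5%) lay in its lowest 25% of 28S, against 25.1% of the rest. For AcIm and NAIN3 these shares were 24.1% and 26.6%.

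**Figure D1:**
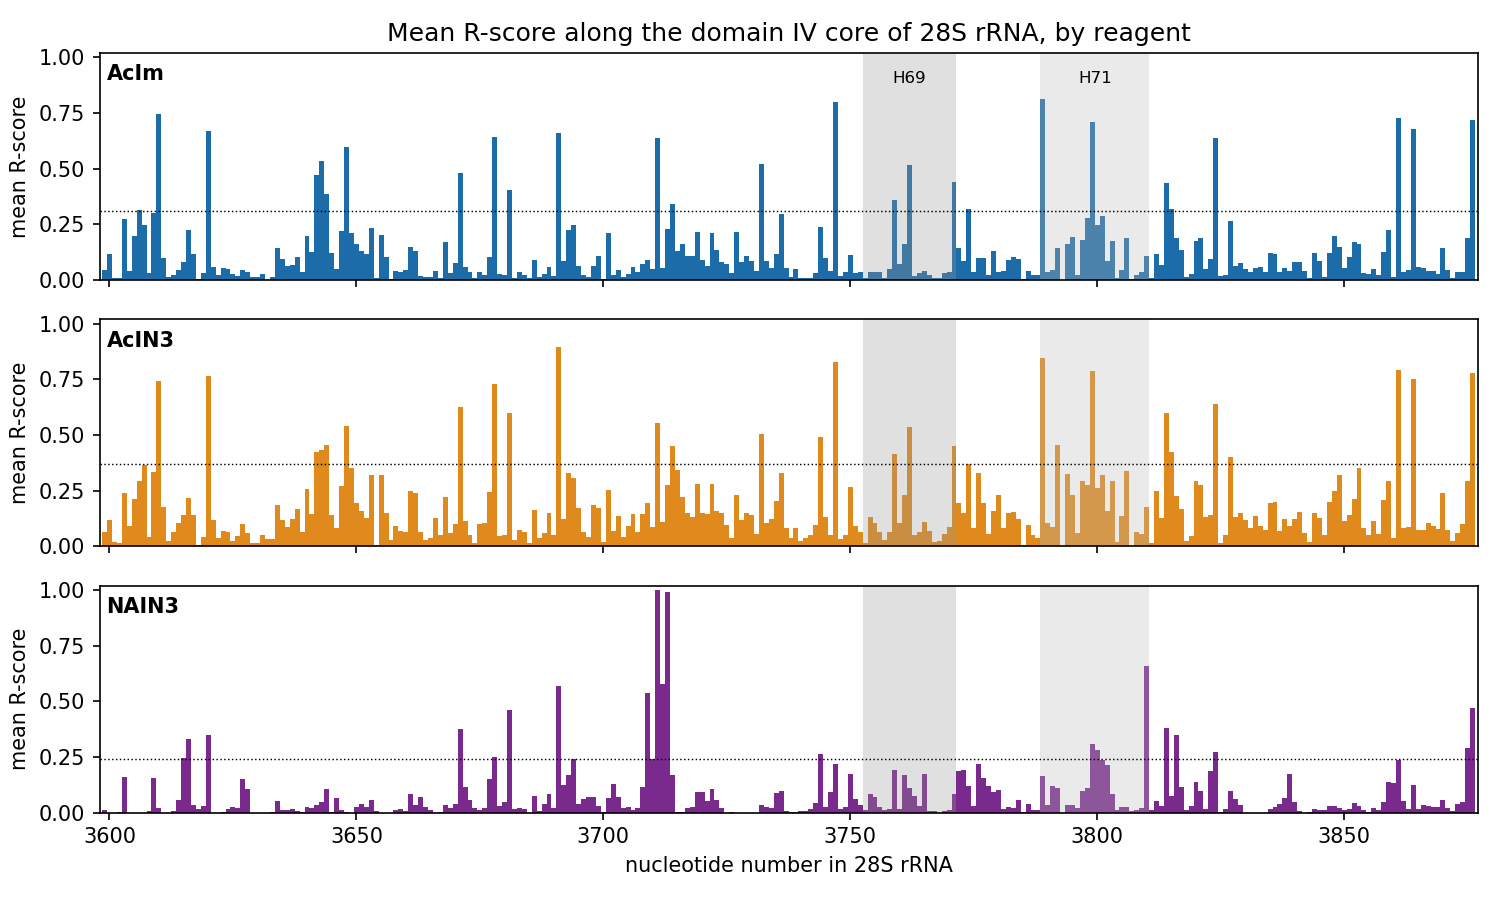
Mean R-score (0 to 1, authors' mean of 2 replicates) of every nucleotide from nt 3599 to 3876 for AcIm, AcIN3 and NAIN3; the grey bands mark H69 and the approximate H71 region, and the dotted line is the lowest score in the reagent's top 10% of 28S. The peaks of AcIm and AcIN3 stand at the same places, while NAIN3 reaches its highest values, 1.0 and 0.9905, at nt 3711 and nt 3713.

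In all, 41 of the 278 nucleotides were highly reactive to at least 1 reagent, and most of them fell into 2 classes. AcIm and AcIN3 shared 25 of the 41, and in 15 of those 25 NAIN3 stayed outside its own top 10%. NAIN3 alone accounted for 11. Only 2 were top for AcIm alone, 2 for AcIN3 alone, and 1 for AcIN3 and NAIN3 without AcIm. Among the 4756 nucleotides of the rest, AcIm and AcIN3 shared 350, of which 193 were also top for NAIN3, and NAIN3 alone accounted for 206. Nucleotides top for no reagent made up 85.3% of the core and 83.0% of the rest. Those top for exactly 1 reagent made up 5.40% and 7.88%, and those top for exactly 2 made up 5.76% and 5.03%. The 10 nucleotides that were highly reactive to all 3 reagents (3.60%, against 4.06% of the rest of 28S) were nt 3620, nt 3671, nt 3678, nt 3681, nt 3691, nt 3711, nt 3799, nt 3814, nt 3824 and nt 3876. The last one is the final nucleotide of the stretch.

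Among these shared positions nt 3691 was the highest for AcIN3, with a score of 0.8965 beside 0.661 for AcIm and 0.5705 for NAIN3. With AcIm, AcIN3 and NAIN3 in turn, nt 3876 scored 0.7185, 0.777 and 0.471, and nt 3620 scored 0.668, 0.7655 and 0.351. All 3 positions ranked at 94.1 or higher with every reagent. The only run of 3 or more nucleotides in the top 20% of every reagent was nt 3799 to 3801, with mean ranks of 91.0, 89.1 and 91.7. It lies within the H71 region.

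The highest AcIm scores of the core were at nt 3789 (0.811), nt 3747 (0.799), nt 3610 (0.7465) and nt 3861 (0.728). AcIN3 scored 0.8455, 0.8265, 0.742 and 0.7905 at these nucleotides, and NAIN3 scored 0.1655, 0.2175, 0.0205 and 0.2345. At nt 3789, nt 3747 and nt 3861 NAIN3 still ranked between 84.7 and 89.8, just outside its own top 10%. At nt 3610 it ranked 37.5. Nt 3789 opens the H71 region, and nt 3747 lies 6 nt before H69.

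The AcIm and AcIN3 profiles were nearly superimposed in the domain IV core. Spearman's rho across its 278 nucleotides was 0.96, against 0.88 across the rest of 28S. Their rank differed by less than 10 percentile points at 198 nucleotides (71.2%), against 61.9% in the rest, and by more than 40 points at 1 nucleotide (0.360%), against 1.96%. That one was nt 3780, which scored 0.0345 with AcIm and 0.2285 with AcIN3 and was singled out after its values were seen. Of AcIm's 27 highly reactive nucleotides 25 (92.6%) were also top for AcIN3, or 89.3% of AcIN3's 28, whereas in the rest the shares were 73.5% and 73.7%.

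AcIN3, at its higher dose, also scored above AcIm almost everywhere in the core. It did so at 259 of 278 nucleotides (93.2%), AcIm was higher at 16, and 3 were equal. In the rest of 28S AcIN3 was higher at 75.7%. The median score difference, AcIm minus AcIN3, was -0.0405 in the core and -0.024 in the rest. The widest AcIN3 leads in rank among its top nucleotides were at nt 3792, with 0.457 against 0.143 for AcIm, and at nt 3744, with 0.4915 against 0.2395. Smaller leads followed at nt 3827, where AcIN3 scored 0.402 and AcIm 0.263, at nt 3681 (0.599 and 0.405) and at nt 3814 (0.5995 and 0.4345). In the other direction they were at nt 3606, nt 3643, nt 3642, nt 3711 and nt 3648, where the lead of AcIm was at most 5.01 points in rank.

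NAIN3 followed the others less closely. Across the core rho was 0.50 between AcIm and NAIN3, against 0.63 in the rest, and 0.55 between AcIN3 and NAIN3, against 0.56. AcIm and NAIN3 shared 10 highly reactive nucleotides, which is 37.0% of AcIm's and 45.5% of NAIN3's, where the rest of 28S gave 51.9% and 51.4%. AcIN3 and NAIN3 shared 11, or 39.3% and 50%, against 46.5% and 45.9%. These correlations run across nucleotides of the same pooled libraries, which are not independent replicates, and they are given as descriptions. If the scores were set against the same DMSO control, they share that as well.

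The same measures were taken in blocks of 278 nt laid end to end from the limits of the core along 28S, which gave 16 other blocks. The rho of AcIm and AcIN3 in those ran from 0.79 to 0.95 (median 0.92), so the core had the highest of 17. The rho of AcIm and NAIN3 ran from 0.51 to 0.72 (median 0.64), so the core had the lowest, although the block at nt 1653 to 1930 was close, with 0.507 against 0.504. Neither place held when the limits of the core moved outwards by 20 nt, where rho became 0.92 for AcIm and AcIN3 and 0.54 for AcIm and NAIN3. With limits moved inwards by 20 nt the second was 0.52, which is also above the lowest other block. The share of nucleotides with AcIN3 above AcIm was likewise the highest of the blocks, which ranged from 47.1 to 91.7%. For the rho of AcIN3 and NAIN3, by contrast, 9 blocks were higher and 7 lower, and for NAIN3's share of highly reactive nucleotides 12 were higher and 4 lower. No test of these differences was made, since blocks differ in structure and are not replicates.

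**Figure D2:**
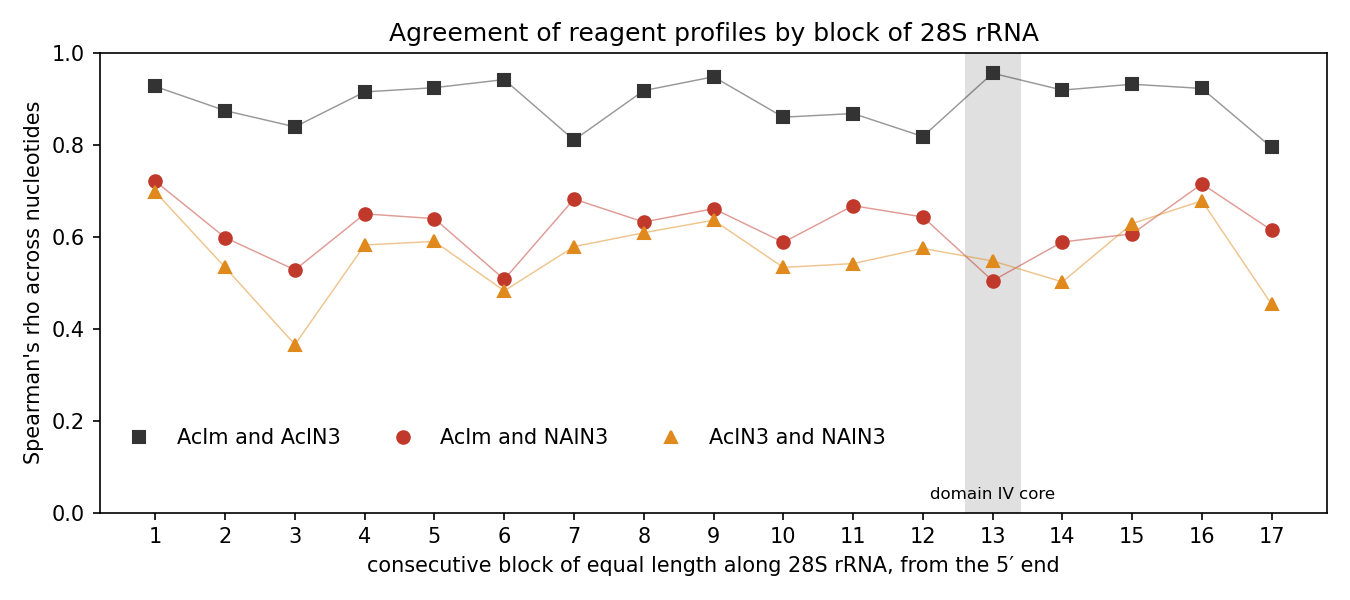
Spearman's rho between reagents across the nucleotides of 17 consecutive 278-nt blocks of 28S rRNA, numbered from the 5′ end, with the domain IV core shaded. In the core the AcIm and AcIN3 value (0.96) lies above all other blocks and the AcIm and NAIN3 value (0.50) below all others, the latter by a narrow margin.

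Within the core, the correlations with NAIN3 were lower before H69 than from H69 on. In nt 3599 to 3752 (154 nt) rho was 0.39 between AcIm and NAIN3 and 0.44 between AcIN3 and NAIN3. From H69 to the end (nt 3753 to 3876, 124 nt) it was 0.66 and 0.69. The correlation of AcIm with AcIN3 was 0.96 and 0.95 in these parts. The place of this division was chosen after the profiles had been seen.

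**Figure D3:**
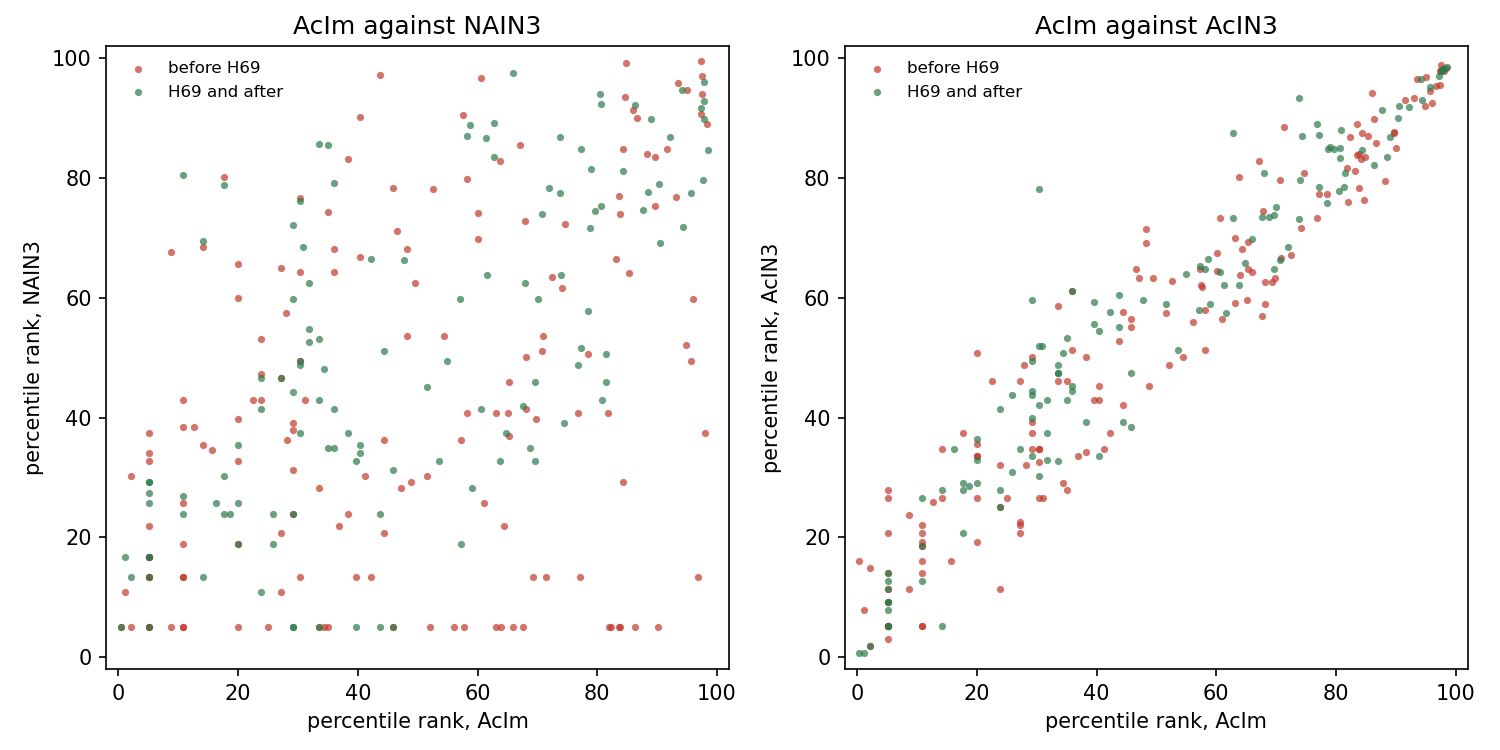
Percentile rank within 28S of each of the 278 nucleotides for AcIm (horizontal axes) against NAIN3 (left) and AcIN3 (right), with nucleotides before H69 in red and those of H69 and after in green. The AcIN3 points follow the diagonal (rho 0.96), and the NAIN3 points scatter (rho 0.50), with the row at the bottom holding the nucleotides that NAIN3 left at 0.

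NAIN3 was listed at 0 mostly in the first of these parts. It was at 0 at 34 of the 278 nucleotides (12.2%, 8.62 to 16.7%), against 10.1% of the rest of 28S, and 26 of the 34 lay before H69, where they made up 16.9% of nucleotides. From H69 on the share was 6.45%. AcIm and AcIN3 were at 0 at 2 nucleotides each. Because depth is unknown, a score of 0 may stand for a low or an uncovered signal.

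Many of the zeros of NAIN3 came in runs. Runs of at least 3 held 21 of the 34, at nt 3604 to 3607, nt 3629 to 3632, nt 3655 to 3657, nt 3727 to 3731 and nt 3830 to 3834. That is 18.0 runs per kb in the core and 9.04 in the rest. The rates are not adjusted for the larger share of zeros in the core (12.2%, against 10.1%). How many of the rest's 478 zeros lay in such runs was not counted. The runs differed in what the other reagents showed there. At nt 3604 to 3607 AcIm and AcIN3 had mean ranks of 73.4 and 74.3, with AcIm at 0.3125 at nt 3606. At nt 3629 to 3632 they too were low, with mean ranks of 11.8 and 13.3. At nt 3727 to 3731 they lay in the middle, at 59.6 and 57.9.

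Over all 34 zeros of NAIN3 the median rank was 37.4 for AcIm and 48.1 for AcIN3. In the rest of 28S the 478 zeros of NAIN3 had medians of 29.8 and 31.7. With nucleotides at 0 left out, rho between AcIm and NAIN3 in the core rose to 0.58.

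At the matched dose, 4 of the core's nucleotides were in the top 10% of AcIm and below rank 50 with NAIN3 (1.44%, against 0.735% of all scored 28S nucleotides). They were nt 3606, nt 3648, nt 3610 and nt 3732, and all lie before H69. Nt 3648 scored 0.5965 with AcIm, 0.5415 with AcIN3 and 0.003 with NAIN3. Nt 3610 scored 0.7465, 0.742 and 0.0205. Nt 3732 scored 0.52, 0.5055 and 0.032, and it directly follows the run of NAIN3 zeros at nt 3727 to 3731. The same 3 nucleotides were those in the top 10% of AcIN3 and below rank 50 with NAIN3 (1.08%, against 1.01%). With counts this small the shares stay near the background.

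Around nt 3642 to 3648 AcIm and AcIN3 opened a cluster that NAIN3 did not. At nt 3642, nt 3643 and nt 3644 AcIm scored 0.473, 0.5355 and 0.3865, and AcIN3 scored 0.4215, 0.4325 and 0.4565. NAIN3 scored 0.036, 0.0485 and 0.107 there. Together with nt 3648 these are 4 of the 15 nucleotides that were top for AcIm and AcIN3 and not for NAIN3, and at none of them did NAIN3 rank above 76.9.

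The opposite pattern was concentrated at nt 3709 to 3713, where NAIN3 had its strongest signal of the core. NAIN3 scored 0.536, 0.243, 1.0, 0.5795 and 0.9905 at the 5 consecutive nucleotides. AcIm scored 0.091, 0.0495, 0.6385, 0.054 and 0.227, and AcIN3 scored 0.1955, 0.0875, 0.552, 0.108 and 0.276. Only the middle one, nt 3711, was highly reactive to all reagents. The group ended abruptly, since NAIN3 fell to 0.1675 at nt 3714 and 0.003 at nt 3715, where AcIN3 scored 0.45 and 0.342.

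By the same limits, 2 nucleotides were in the top 10% of NAIN3 and below rank 50 with AcIm, nt 3710 and nt 3712 (0.719%, against 0.556% of 28S). One of these, nt 3710, was also below rank 50 with AcIN3 (0.360%, against 0.795%). Further NAIN3 leads outside the group were at nt 3810 (0.657, with 0.1085 for AcIm and 0.1755 for AcIN3) and nt 3615 (0.2475, 0.0825 and 0.141). Nt 3810 is the last nucleotide of the H71 region as drawn here. Between AcIm and AcIN3 no nucleotide of the core met these limits in either direction, where 28S as a whole gave 0.0596% and 0%.

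Some of NAIN3's own top nucleotides sat beside those of AcIm, in a share near that of the rest of 28S. Of the 11 that were top for NAIN3 alone, 6 (54.5%) had an immediate neighbour in AcIm's top 10%, against 44.7% of 206 in the rest of 28S. They were nt 3710 and nt 3712 beside nt 3711, nt 3713 beside nt 3714, nt 3800 beside nt 3799, nt 3816 beside nt 3815 and nt 3875 beside nt 3876. Over the whole core, rho between AcIm and NAIN3 was 0.13 or 0.03 with NAIN3 moved by 1 nt towards the 3′ or the 5′ end, and an offset at these 6 nucleotides was not tested.

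A mean of 2 replicates that each lie between 0 and 1 limits both of them, so some means are far enough apart that the replicates of 2 reagents cannot overlap. By this bound both AcIm replicates lay above both NAIN3 replicates at nt 3610, nt 3648, nt 3747, nt 3789 and nt 3864 (1.80% of the core, against 1.09% of 28S). The reverse held at nt 3712, nt 3713 and nt 3810 (1.08%, against 0.854%). For AcIN3 over NAIN3 there were 6, the 5 of AcIm and nt 3861 (2.16%, against 1.47%), and for NAIN3 over AcIN3 only nt 3713 (0.360%, against 0.854%). None separated AcIm from AcIN3, where 28S gave 0.0397% for AcIm over AcIN3 and 0.119% for the reverse. The bound can be met only by a mean above 0.5, and the spread within a reagent remains unknown. Nt 3606, nt 3732 and nt 3710, named above for their ranks, did not meet it.

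With AcIm, H69 was low along most of its stem and high at single nucleotides of its loop, and NAIN3 did not share this pattern in full. The hairpin was placed at nt 3753 to 3771, with strands at nt 3753 to 3757 and nt 3767 to 3771 and a loop at nt 3758 to 3766. In the first strand AcIm scored between 0.009 and 0.0355, AcIN3 between 0.013 and 0.131, and NAIN3 between 0.011 and 0.085. By rank, however, this strand was near the middle of 28S with NAIN3 (mean rank 48.0, against 19.9 with AcIm and 32.9 with AcIN3), since nt 3754 and nt 3755 ranked 72.1 and 68.4 with NAIN3. In the second strand nt 3767 to 3770 scored at most 0.0335, 0.086 and 0.0095 for AcIm, AcIN3 and NAIN3, and nt 3766 to 3770 formed one of 4 runs of at least 5 nucleotides below rank 50 with every reagent. The end of that strand, nt 3771, was an exception, at 0.439 (AcIm), 0.4485 (AcIN3) and 0.0835 (NAIN3), the first 2 within their top 10%.

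In the loop, nt 3759 and nt 3762 stood out for AcIm and AcIN3. Nt 3759 scored 0.361, 0.416 and 0.1905 with AcIm, AcIN3 and NAIN3. Nt 3762, a listed pseudouridine, scored 0.516, 0.536 and 0.1105. Nt 3761 was intermediate, with 0.163, 0.2315 and 0.167. Am3760, a listed ribose-methylated adenosine beside nt 3759 and nt 3761, was lower than both with each reagent, at 0.0735, 0.104 and 0.016. The remaining loop nucleotides were low with AcIm, at 0.0495 for nt 3758, 0.0185 for nt 3763, 0.031 for nt 3764, 0.0415 for nt 3765 and 0.024 for nt 3766.

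NAIN3 placed its loop signal differently. Its highest H69 scores were 0.1905 at nt 3759, 0.173 at nt 3765 and 0.167 at nt 3761. No nucleotide of H69 was in its top 10%, against 10.1% of the rest of 28S. For AcIm and for AcIN3 there were 3 (nt 3759, nt 3762 and nt 3771), or 15.8%, against 10.0% and 9.99%. With 19 nucleotides these counts stay near the background. At nt 3765 NAIN3 ranked 85.5, AcIN3 53.3 and AcIm 35.1. The loop had a mean rank of 50.6 with AcIm, 55.9 with AcIN3 and, highest, 59.6 with NAIN3, and the whole hairpin of 37.6, 45.1 and 48.1. AcIN3 scored above AcIm at all 19 nucleotides of H69, and at 93.2% of the whole core. AcIm scored above NAIN3 at 12 of the 19 (63.2%), against 73.4% of the whole core and 72.2% of the rest of 28S.

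**Figure D4:**
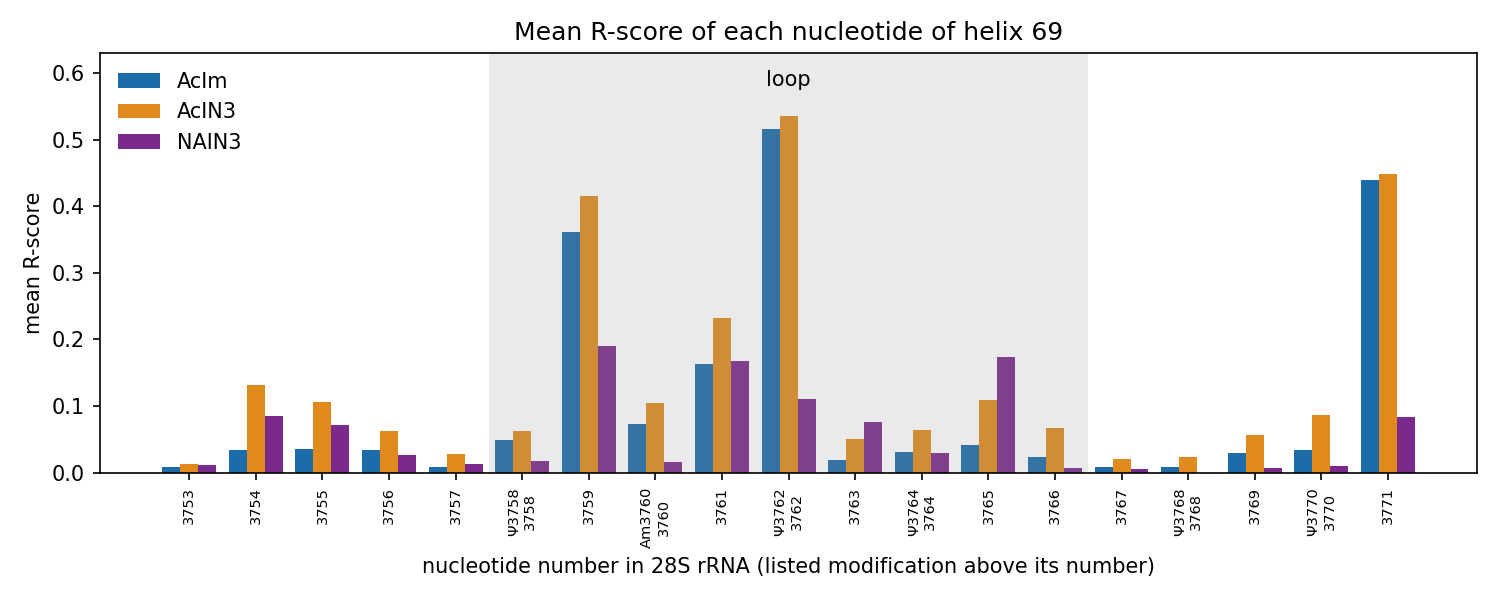
Mean R-score (0 to 1) of each of the 19 nucleotides of H69 for AcIm, AcIN3 and NAIN3, with the loop shaded and listed modifications named at their positions. AcIm and AcIN3 peak together at nt 3759, nt 3762 and nt 3771, and NAIN3 exceeds both at nt 3763 and nt 3765.

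The strand that follows H69, nt 3772 to 3788, joins it to H71 and varied widely from one nucleotide to the next. By mean rank it stood at 46.5 (AcIm), 55.0 (AcIN3) and 58.6 (NAIN3). Its highest AcIm score, 0.3165, and its highest AcIN3 score, 0.3685, were both at nt 3774, and its highest NAIN3 score was 0.219 at nt 3776. The lowest score with every reagent was at nt 3785, so AcIm ranks in the strand ran from 2.10 to 90.4. Of its 17 nucleotides 1 entered a top 10%, nt 3774 for AcIm (5.88%, against 10.0% of the rest outside the core). None did for AcIN3 or NAIN3, against 9.99% and 10.1% of the rest. With 17 nucleotides these counts stay near the background. The listed 5-methylcytidine of this strand, at nt 3782, scored 0.091, 0.1495 and 0.024 with AcIm, AcIN3 and NAIN3.

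The H71 region, drawn at nt 3789 to 3810, was the most reactive segment of the core by mean score. AcIm averaged 0.172 there, AcIN3 0.240 and NAIN3 0.119, against 0.125, 0.170 and 0.0751 before H69. It held nt 3789, the highest AcIm score of the core, and nt 3799, which scored 0.7085, 0.7885 and 0.31. NAIN3 formed a shoulder over nt 3799 to 3802, with 0.31, 0.283, 0.238 and 0.216. Within the same segment nt 3793 was listed at 0 for every reagent, and nt 3807 scored 0.0035 with AcIm, 0 with AcIN3 and 0.005 with NAIN3. The segment is approximate, so its ends may belong to neighbouring helices, among them nt 3810, which held its highest NAIN3 score, 0.657.

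Past H71, nt 3811 to 3876 had 6 highly reactive nucleotides for AcIm, 7 for AcIN3 and 5 for NAIN3 among 66. These shares of 9.09%, 10.6% and 7.58% stay near those of the rest outside the core, 10.0%, 9.99% and 10.1%. Nt 3814 scored 0.4345, 0.5995 and 0.3815 with AcIm, AcIN3 and NAIN3, nt 3824 scored 0.637, 0.6405 and 0.2725, and nt 3864 scored 0.6765, 0.7505 and 0.125. From nt 3828 to nt 3860 no nucleotide was highly reactive to any reagent. This stretch includes the NAIN3 zeros at nt 3830 to 3834. It was not low throughout, since nt 3859 ranked 84.4, 84.7 and 81.2 with AcIm, AcIN3 and NAIN3. How often stretches of this length without a highly reactive nucleotide occur outside the core was not counted.

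The longest closed runs of the core lay elsewhere. Nt 3737 to 3742 (6 nt), nt 3622 to 3626 and nt 3629 to 3633 (5 nt each) were below rank 50 with every reagent, beside nt 3766 to 3770 in H69. These 4 runs of at least 5 nt make 14.4 per kb in the core, against 7.78 in the rest of 28S. No run reached 10 nt, and the rest had 2 runs of that length (0.421 per kb). In total 94 nucleotides of the core (33.8%) were below rank 50 with all 3 reagents, against 32.9% of the rest.

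Ribose-methylated nucleotides of the core had lower median ranks than unlisted ones, and their share below rank 50 stood farthest from that of unlisted ones with NAIN3 and was below it with AcIN3. The 15 listed sites had median ranks of 38.3 with AcIm, 50.9 with AcIN3 and 32.8 with NAIN3, against 45.8, 56.9 and 46.6 for the 247 nucleotides on no list. None was in the top 10% of AcIm, against 10.5% of unlisted nucleotides. In the top 10% of AcIN3 and in that of NAIN3 there was 1 of 15, against 10.5% and 8.50%. With 15 sites these counts stay near the unlisted shares. Below rank 50 were 9 of 15 with AcIm, 6 with AcIN3 and 12 with NAIN3, which is 60%, 40% and 80%, against 52.6%, 43.7% and 53.0% of unlisted nucleotides. Set against the nearest unlisted nucleotides, up to 2 on each side, 9 of the 15 (60%) ranked lower with every reagent, as did 34.0% of unlisted nucleotides by the same rule. With every reagent 3 of the 15 ranked higher, as did 34.8% of unlisted ones. The mean rank of the list with NAIN3 was 37.9, but it became 53.4, above the 48.6 of unlisted nucleotides, when the list was moved by 1 nt towards the 5′ end.

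The deepest dips lay from H69 on. Am3825 scored 0.0185 (AcIm), 0.013 (AcIN3) and 0.003 (NAIN3). Its rank minus that of its neighbours was -51.8, -64.4 and -57.4 points. One of the neighbours is the highly reactive nt 3824. The methylated pseudouridine at nt 3818 scored 0.015, 0.0255 and 0.0115, with differences of -53.0, -51.4 and -48.3 points. Am3785 scored 0.0055, 0.0055 and 0.003. Of the 10 listed sites from H69 on, 9 ranked below their neighbours with AcIm, 8 with AcIN3 and 9 with NAIN3, against 47.1%, 47.1% and 41.3% of 104 unlisted nucleotides there. This division at H69 was made after the values were seen.

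The sites above their neighbours with every reagent were Gm3744, Cm3701 and Gm3627, all before H69. From H69 on, Cm3841 was above them with both AcIm and AcIN3, by 28.9 points with the latter, and Am3867 with AcIN3 and NAIN3, by 9.20 and 6.34. Gm3744 scored 0.2395 (AcIm), 0.4915 (AcIN3) and 0.2635 (NAIN3), and it was in the top 10% of AcIN3 and NAIN3. Cm3701 scored 0.209, 0.252 and 0.0635, and Gm3627 scored 0.046, 0.1005 and 0.1525. Of the 5 sites before H69, 2 ranked below their neighbours with AcIm, 1 with AcIN3 and 2 with NAIN3, against 53.8%, 46.2% and 55.9% of 143 unlisted nucleotides. The extent of methylation at each site in these cells was not measured here, and the listed positions were not matched to bases.

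Pseudouridines, which keep a free 2′-hydroxyl, had a lower mean rank than unlisted nucleotides with NAIN3 and a similar or higher one with AcIm and AcIN3, a contrast that was not tested. The 15 listed sites, methylated nt 3818 not counted, had a mean rank of 32.4 with NAIN3, 50.1 with AcIm and 57.6 with AcIN3, against 48.6, 49.6 and 54.7 for unlisted nucleotides. With NAIN3 13 of 15 (86.7%) ranked below 50, against 53.0% of unlisted nucleotides. None was in its top 10%, against 8.50% of unlisted nucleotides, and with 15 sites this count stays near that share. With AcIm 8 of 15 ranked below 50 (53.3%, against 52.6% of unlisted nucleotides). With AcIN3 it was 5 of 15 (33.3%, against 43.7%). Set against their neighbours the reagents differed less, with 11 of 15 lower for AcIm, 8 for AcIN3 and 11 for NAIN3, where 51.0%, 46.6% and 49.8% of unlisted nucleotides were lower. The NAIN3 scores of the list ran from 0 to 0.1105, the highest at Ψ3762.

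The gap between reagents varied among individual pseudouridines, and AcIm scored above NAIN3 at 73.4% of the whole core. Ψ3715 scored 0.1315 (AcIm), 0.342 (AcIN3) and 0.003 (NAIN3), and Ψ3853 scored 0.161, 0.35 and 0.0315. With NAIN3, however, Ψ3853 ranked 17.8 points above its neighbours. Ψ3730 lies in a run of NAIN3 zeros and scored 0.083 and 0.1405 with AcIm and AcIN3. In other cases NAIN3 ranked above AcIm, at 46.6 against 27.2 for Ψ3764 and 53.6 against 48.2 for Ψ3695. The 5 listed pseudouridines of H69 held both the highest score of the list, at Ψ3762, and its lowest, at Ψ3768, which scored 0.009, 0.024 and 0. The low NAIN3 rank depends on the numbering: with the list moved by 1 nt towards the 3′ or the 5′ end, the mean rank became 49.9 or 44.1.

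**Figure D5:**
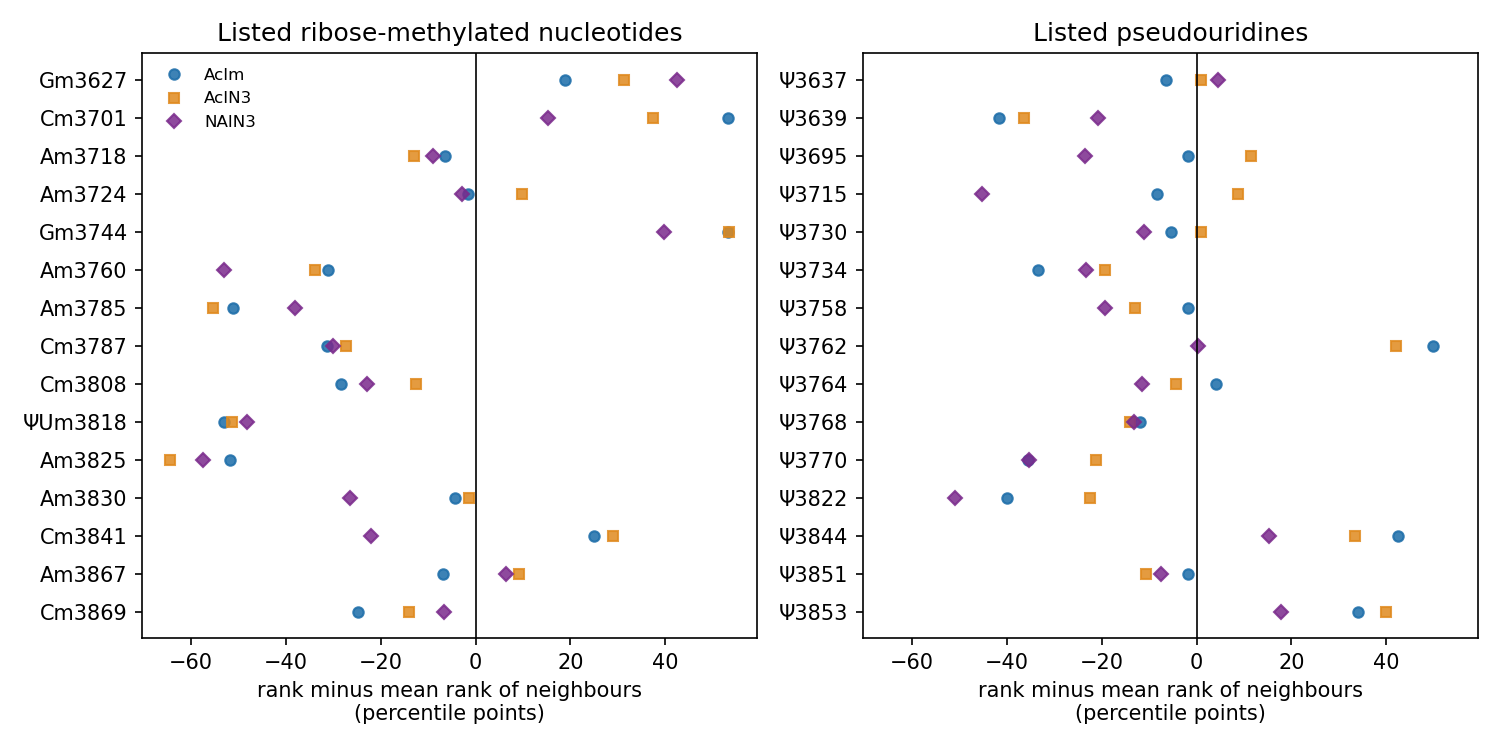
For each of 15 listed ribose-methylated nucleotides and 15 listed pseudouridines of the core, the percentile rank minus the mean rank of its unlisted neighbours within 2 nt, for AcIm, AcIN3 and NAIN3; values left of 0 rank below their neighbours. Ribose-methylated sites from Am3760 on lie mostly to the left, and Gm3627, Cm3701 and Gm3744 lie to the right with every reagent.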

How the data were processed

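Per the file headers, each deposited value is the authors' score for 1 nucleotide, the mean of 2 replicates' R-scores, and it lies between 0 and 1. Per the submitters' processing notes, Bowtie2 and GRCh38 were used. How the R-score was computed, with what use of DMSO reads, filters and rRNA sequence, is not given in the sources used here, and reads of different rRNA gene copies cannot be told apart. All scores of the stretch lie on steps of 0.0005. Depth is unknown, and averaging removes replicate error.

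Scores were used as deposited. Percentile ranks (ties averaged) were taken over the 5034 scored 28S nucleotides within a reagent, and the top 10% with ties ordered by position. No replicate test was possible. Helix limits and modification lists were written from general knowledge, without a check against bases. The members and lists were chosen with earlier results of these data known. Named nucleotides are all of H69, the 8 highest scores per reagent (the leading ones in full), the 5 largest rank differences per direction and pair among the top 10% of the higher reagent, methylated sites in a top 10%, and runs. The remaining ones, the blocks, the adjacency counts, the runs of zeros and of 5 low nucleotides, and the division at H69 were chosen after seeing the values. The counting rules were tested on simulated data. Work was done in Python 3.11.15 with pandas 2.3.3 and numpy 2.4.6, intervals with scipy 1.17.1, and plots with matplotlib 3.10.9. The planned analyses by base were not run for want of a sequence.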

Additional observations from a re-analysis of the deposited data

How the results depend on the processing

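No paired analysis was possible because only means over the replicates were analysed, so no replicate could be left out either. The highly reactive share of the core over that of the rest ran from 0.922 to 1.26 with AcIm, from 1.01 to 1.24 with AcIN3 and from 0.563 to 0.907 with NAIN3 over 21 alternatives, each within the interval of the reported share once scaled to the rest. Median ranks stayed within their 95% intervals under 12 alternatives. For rho (tolerance 0.1), moving NAIN3 by 1 nt towards the 3′ or the 5′ end gave 0.134 and 0.0295 with AcIm and 0.156 and 0.0416 with AcIN3. The parts before H69 and from H69 on, chosen after seeing the data, gave 0.39 and 0.66 with AcIm and 0.44 and 0.69 with AcIN3.

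Counts of opposed nucleotides (top of one reagent, low in the other) followed the limits, by construction. For AcIm over NAIN3 the 4 became 13 with the top 20%, 2 with only the lowest 25% as low and 19 with scaled scores at least 0.5 apart. For NAIN3 over AcIm the 2 became 1 with the top 5%, then 7, 0 and 11. For AcIN3 over NAIN3 the 3 became 14, 1 and 20. For NAIN3 over AcIN3 the 1 became 0 with the top 5%, then 4, 0 and 9. Scaled scores gave 2 for AcIm over AcIN3 and 2 for the reverse, in place of 0.

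The loop of H69 lay above the 28S mean by rank with NAIN3 and, at a mean score of 0.0872, below it by score. The other 23 alternatives for H69 stayed within 10 points or on the same side. With NAIN3, ribose-methylated sites moved by 1 nt towards the 5′ end had a mean rank of 53.4, against 37.9. The pseudouridine list moved towards the 3′ or the 5′ end had 49.9 or 44.1, against 32.4. Without replicate values and depth, none of these differences can be called larger than replicate error.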
